A study of Mus musculus with 6 samples.

Results

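The genes described here encode the proteins of the mitochondrial ribosome, whose mouse symbols begin with Mrpl or Mrps followed by a number. They were taken by symbol from probe sets with a single annotated gene, and where a gene had several probe sets the brightest on average over the 6 arrays was kept. This gave 77 genes of 19938 measured, 50 of the large and 27 of the small subunit. Mrpl53 was covered by a probe set shared with Ccdc142 and was not analysed here. Transcript levels were measured in total RNA of E14.5 mouse fetal livers, a stage at which the organ is the main site of red cell production. There were 3 livers of Tmod3-/- embryos, labelled as small livers with anemia, and 3 of Tmod3+/+ embryos labelled normal, all of strain C57BL/6J. The series text calls the embryos independent, and each RNA was read on 1 Affymetrix MoGene 1.0 ST array. The allele that removes Tmod3, which encodes an actin-capping tropomodulin, is not described in the sources used here.

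The mitochondrial ribosome translates the few messages of the mitochondrial genome, all for core subunits of the respiratory chain and ATP synthase. Its ribosomal RNAs come from mitochondrial DNA, whereas every one of its proteins is encoded in the nucleus, made in the cytosol and imported. Some of these proteins have counterparts in bacterial ribosomes and others exist only in mitochondria. Erythroblasts need mitochondria for the first and last steps of heme synthesis and discard them as they mature.

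The knockout arrays read 1.32, 2.36 and 1.30 for Tmod3 and the wild type arrays 4.49, 4.78 and 4.90, on the log2 scale of the deposited values, so each array matched its genotype label. Array medians over all probe sets lay between 1.36 and 1.43. The 90th percentile was 3.67 to 3.82 in the knockout arrays and 3.68, 4.07 and 4.13 in wild type replicates 1, 2 and 3. The arrays of wild type replicates 2 and 3 thus had more high values than the other 4 arrays. Over all probe sets, wild type replicate 1 correlated with knockout replicate 1 (0.983) more closely than with wild type replicate 3 (0.978). Precision is limited by having 3 arrays per genotype. In a whole organ, fewer cells of a type and less RNA per cell cannot be told apart.

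Transcripts of mitochondrial ribosomal proteins read lower in knockout liver as a group. The median log2 fold change of the 77 genes was -0.25, against 0.01 over all genes, and 63 were negative and 14 positive. With limma, 20 of the 77 were lower at an unadjusted p under 0.05 and 0 were higher, where 6.44% of all genes were lower and 2.59% higher by the same rule. No member passed after Benjamini-Hochberg adjustment over all genes, which 0.0150% of genes did, and the smallest adjusted p among the members was 0.184. In 18 members the 3 knockout arrays all lay below the 3 wild type arrays, and in 0 did they all lie above, against 7.10% and 6.14% of all genes. Averaged over the 77 genes, the knockout livers read 2.75, 2.71 and 2.65, in the order of their replicate numbers, and the normal livers 2.84, 2.94 and 3.11. The groups did not overlap and the nearest arrays of the 2 groups were knockout replicate 1 and wild type replicate 1. Wild type replicate 3 was the highest of the 6 arrays for 41 members and knockout replicate 3 the lowest for 26. Leaving out wild type replicate 3 gave a median of -0.16 and 15 lower members, against 4.46% of all genes. After the arrays were quantile normalized again the median was -0.13 and 11 members were lower, against 4.66% of all genes.

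**Figure D1:**
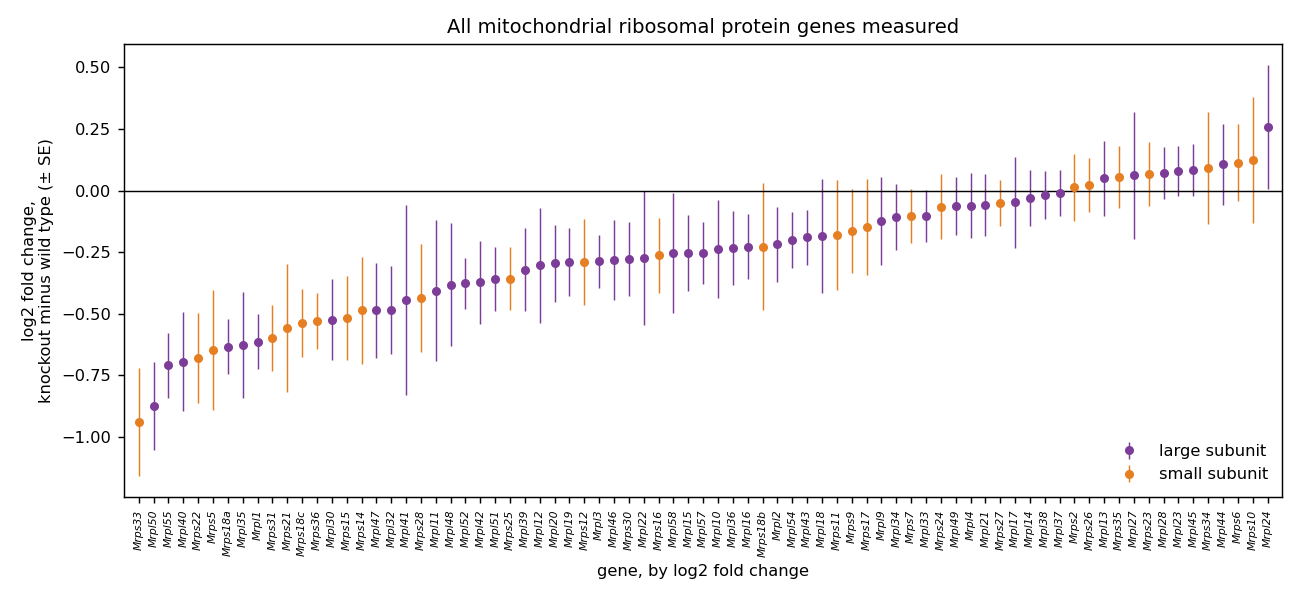
Log2 fold change (knockout minus wild type, bars 1 SE from limma, n = 3 arrays each) of each of the 77 genes in order, coloured by ribosomal subunit. The values run from -0.94 for Mrps33 to 0.26 for Mrpl24, 63 lie below 0, and both subunits are spread over the range.

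The size of the difference went with the brightness of the probe set. Over the 77 members the mean level and the log2 fold change had a Pearson correlation of -0.55 and a Spearman correlation of -0.51. Over all genes both values were -0.38, and these points share the same 6 arrays, so the values are descriptions only. For the 24 brighter members, whose mean level reached 3 or more, the median log2 fold change was -0.49, and it was -0.25 for the 2545 genes of that range. Of these 24, 13 were lower at an unadjusted p under 0.05 (54.2%), against 26.6% of the 2545 genes. The same split after renewed quantile normalization was 5 of 24 (20.8%) against 13.2%, with medians of -0.26 and -0.06. Without any 1 array, 45.8% to 70.8% of the 24 were lower, against 15.1% to 45.1% of all genes in that range.

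By narrower ranges of level the members stood apart from other genes unevenly. From 2 to 3, where most members lay (34 genes), the median was -0.14, close to the -0.13 of all 2111 genes in that range. There 5 of the 34 were lower at an unadjusted p under 0.05, against 16.3% of all genes in the range. From 3 to 4 the medians were -0.41 for 11 members and -0.24 for all genes, and from 4 to 5 they were -0.49 for 5 members and -0.28. From 5 to 6 they were -0.56 for 7 members and -0.28. In the dimmest range, from 1 to 2, 19 members had a median of -0.18 where that of all genes was 0.03. In all, 53 of the 77 members lay below the median of their range, and the median distance from it was -0.14. The range from 1 to 2 held 14695 genes and includes the array medians, so the match of levels there is coarse.

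**Figure D2:**
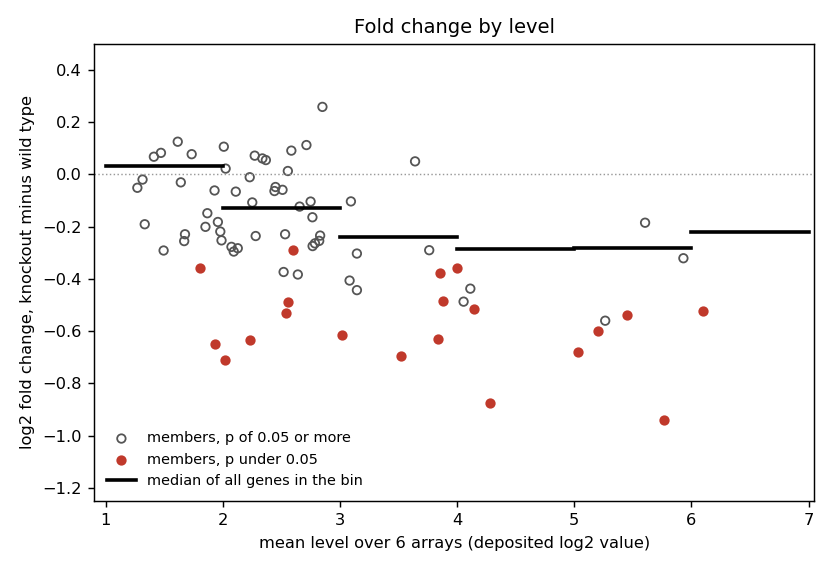
Log2 fold change (knockout minus wild type) against the mean level over 6 arrays for the 77 genes, filled where the unadjusted limma p is under 0.05. Black bars give the median of all genes in each range of 1 log2 unit, from 0.03 at levels of 1 to 2 to -0.28 at 4 to 6.

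Proteins of the large subunit gave 12 of the 20 lower genes. Mrps18a carries a small-subunit name but encodes a large-subunit protein, classed here as mitochondria-specific. Its readings were 1.79, 2.02 and 1.92 in knockout and 2.56, 2.42 and 2.65 in wild type liver. It had the smallest p of the members (log2 fold change -0.63, SE 0.11, limma adjusted p = 0.184). The groups did not overlap, although the level was low in both.

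Mrpl1, the protein of the mobile stalk near the tRNA exit site, read 2.70, 2.57 and 2.86 against 3.25, 3.34 and 3.38 (log2 fold change -0.61, SE 0.11, limma adjusted p = 0.184). The 3 wild type arrays lay close together, and the highest knockout array was replicate 3. For Mrpl55, the counterpart of a zinc-binding bacterial protein at the subunit interface, the readings were 1.84, 1.61 and 1.55 against 2.40, 2.18 and 2.54 (log2 fold change -0.71, SE 0.13, limma adjusted p = 0.194). Replicate 1 was the nearest knockout array to wild type.

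Mrpl50, a protein specific to mitochondria, had the largest mean difference in the large subunit. Knockout arrays read 4.12, 3.61 and 3.81 and wild type arrays 4.44, 4.71 and 5.01, so that the transcript was 1.83-fold lower (log2 fold change -0.87, SE 0.18, limma adjusted p = 0.204). In both genotypes replicate 1 was the array nearest to the other group. Mrpl40, also mitochondria-specific, read 3.56, 3.06 and 2.91 against 3.63, 3.81 and 4.18, with knockout replicate 1 only just below wild type replicate 1 (log2 fold change -0.70, SE 0.20, limma adjusted p = 0.368).

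Mrpl30, a core protein with a bacterial counterpart, read 6.09, 5.67 and 5.74 against 6.58, 6.08 and 6.41, the highest mean among the members. Knockout replicate 1 lay just above wild type replicate 2, so the groups overlapped (log2 fold change -0.52, SE 0.16, limma adjusted p = 0.402). Mrpl52, found only in mitochondria, had a smaller difference but little spread, with 3.76, 3.68 and 3.55 against 4.11, 4.03 and 3.98 (log2 fold change -0.38, SE 0.10, limma adjusted p = 0.336). The remaining large-subunit genes lower at an unadjusted p under 0.05 were Mrpl35 (-0.63), Mrpl32 (-0.49), Mrpl47 (-0.49), Mrpl51 (-0.36) and Mrpl3 (-0.29), as log2 fold changes. Mrpl32 is processed after import by a protease of the inner membrane before it joins the ribosome. Knockout replicate 1 lay just above wild type replicate 3 for Mrpl32, and the groups did not overlap for the other 4. Without knockout replicate 2 the log2 fold change of Mrpl47 was -0.25, and without knockout replicate 3 that of Mrpl35 was -0.40.

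Proteins of the small subunit gave the other 8 lower genes. Mrps33, a mitochondria-specific protein of the small subunit, had the lowest log2 fold change of all members. Its knockout arrays read 5.69, 5.37 and 4.83 and its wild type arrays 6.00, 6.24 and 6.48, a 1.92-fold difference (log2 fold change -0.94, SE 0.22, limma adjusted p = 0.273). Knockout replicate 3 was the lowest array, and without it the log2 fold change was -0.71.

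Mrps31, specific to mitochondria, read 5.08, 4.89 and 4.75 against 5.31, 5.60 and 5.61 (log2 fold change -0.60, SE 0.13, limma adjusted p = 0.243). The groups were separated by the gap between knockout and wild type replicate 1. Mrps22, a mitochondria-specific protein mutated in an inherited mitochondrial disease, read 5.002, 4.59 and 4.48 against 5.49, 5.56 and 5.06 (log2 fold change -0.68, SE 0.18, limma adjusted p = 0.328). Here wild type replicate 3 was the lowest of its group and stood just above knockout replicate 1.

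Mrps36 read 2.33, 2.36 and 2.13 against 2.72, 2.76 and 2.94 (log2 fold change -0.53, SE 0.11, limma adjusted p = 0.233). Its product is also known as a subunit of the 2-oxoglutarate dehydrogenase complex, and its place in the ribosome is in doubt. Mrps5 (-0.65), which lies near the messenger entry channel, Mrps15 (-0.52) and Mrps25 (-0.36) were lower too, as log2 fold changes at an unadjusted p under 0.05. For Mrps5 the wild type arrays read 2.02, 1.90 and 2.85, and without replicate 3 the log2 fold change was -0.35. For Mrps15 knockout replicate 1 (4.17) lay above wild type replicate 1 (4.14). Of the 20 lower genes, 17 had groups that did not overlap, and Mrps14, singled out here by its values, was the only other member of this kind. The 20 were chosen by p on the same arrays, so this separation follows in part from the choice.

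**Figure D3:**
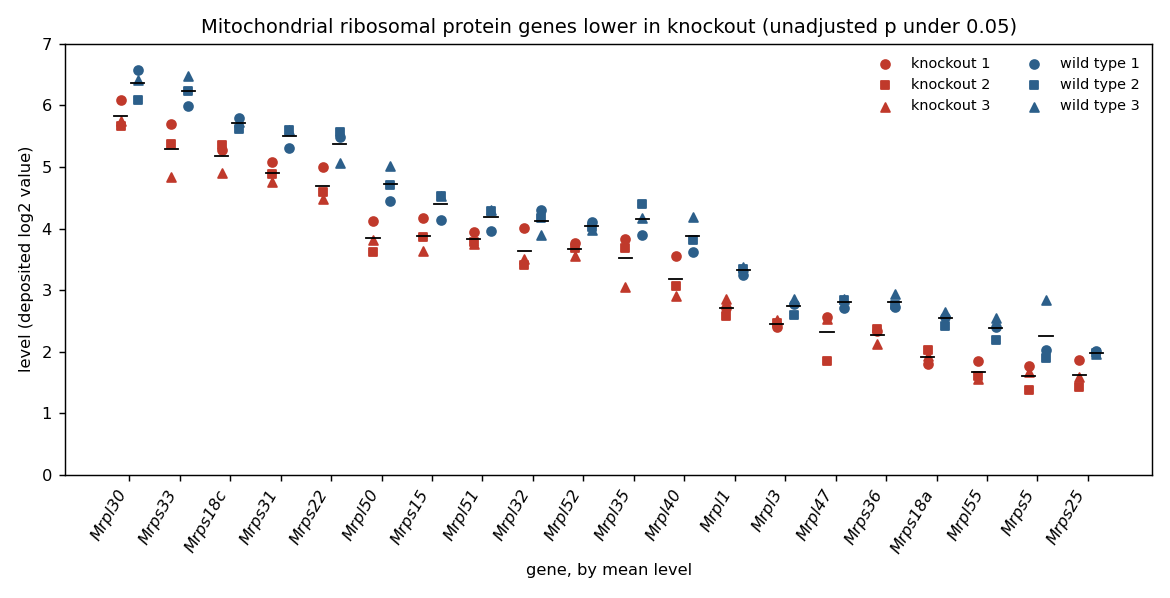
Level (deposited log2 value) of the 20 genes lower in knockout at an unadjusted limma p under 0.05, in each of the 3 knockout (red) and 3 wild type (blue) arrays, with group means as black bars. The groups overlap for Mrpl30, Mrpl32 and Mrps15 and not for the other 17, and Mrps33 and Mrpl50 have the largest differences between group means.

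The 20 genes differed in how far they rested on single arrays. At an unadjusted p under 0.05, 12 of them remained when any 1 array was left out. These were Mrpl1, Mrpl30, Mrpl40, Mrpl50, Mrpl52, Mrpl55, Mrps18a, Mrps18c, Mrps22, Mrps31, Mrps33 and Mrps36. After renewed quantile normalization 10 remained, and Mrps18a (-0.58), Mrpl55 (-0.67), Mrpl50 (-0.66), Mrps33 (-0.75) and Mrpl1 (-0.43) were among them. Mrpl30, Mrpl52, Mrps18c and Mrps22 were not, with log2 fold changes of -0.34, -0.15, -0.32 and -0.46. The 20 were chosen by p in the fit of all arrays, so their remaining is in part built in. The share of all lower genes that remained was not counted.

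Members of both subunits and of both evolutionary classes were among the lower genes. The median log2 fold change was -0.25 for the 50 large-subunit genes and -0.23 for the 27 small-subunit genes, with 12 and 8 lower at an unadjusted p under 0.05. For the 46 genes with bacterial counterparts it was -0.23, with 10 lower, and for the 30 mitochondria-specific genes -0.27, with 9 lower. Over all genes, 6.44% were lower by this rule. Mrps36 was counted in neither class. Mrps18a and Mrps18b were counted as mitochondria-specific, although they descend from a bacterial protein. Differences between these classes were not tested.

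The Mrps18 paralogs, descended from a single bacterial small-subunit protein, did not read alike. Mrps18c, the paralog nearest to the bacterial position, read 5.27, 5.35 and 4.91 against 5.80, 5.61 and 5.73 (log2 fold change -0.54, SE 0.14, limma adjusted p = 0.309). Mrps18b read 1.45, 1.74 and 1.4995 against 1.45, 1.47 and 2.46 (log2 fold change -0.23, SE 0.26, limma adjusted p = 0.857). For Mrps18b a single wild type array, replicate 3, stood above the rest, and the other values lay near the array medians. Whether the paralogs differed in their response was not tested.

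Of the 77 genes, 8 had a further probe set annotated to them, read in the same RNA. Whether each set, the brighter one included, reads only the named gene was not tested. For Mrps33 the second set read 5.22, 4.89 and 4.64 against 5.53, 5.70 and 5.77, a log2 fold change of -0.75 beside -0.94. For Mrps36 it gave -0.51 beside -0.53 and for Mrps5 -0.39 beside -0.65. In these 3 genes both sets had the same direction. The second sets of Mrpl47, Mrpl51 and Mrpl41 were dim, with means of 1.48, 1.58 and 1.79, and gave -0.13, -0.05 and -0.01 beside -0.49, -0.36 and -0.44. For Mrpl27 the sets differed in sign, with 0.06 for the brighter and -0.16 for the other.

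Not every member with high readings showed a gap between the groups. Mrpl39, a mitochondria-specific protein, read 5.66, 5.83 and 5.82 against 5.70, 6.25 and 6.32 (log2 fold change -0.32, limma adjusted p = 0.651). Wild type replicate 1 lay among the knockout arrays, and without it the log2 fold change was -0.52. Mrpl18, a core protein of the central protuberance, read 5.73, 5.14 and 5.67 against 5.30, 5.67 and 6.12, with overlapping groups (log2 fold change -0.18, limma adjusted p = 0.876). Mrpl41 was the least even, as its wild type arrays read 2.40, 3.53 and 4.17 beside 2.92, 3.14 and 2.72 in knockout. Without wild type replicate 1 its log2 fold change moved from -0.44 to -0.93, and without replicate 3 to -0.04.

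The lowest readings belonged to Mrps27, Mrpl38, Mrpl43 and Mrps23. Mrps27, Mrpl38 and Mrpl43 averaged below the array medians, where a difference could not be measured, and their log2 fold changes were -0.05, -0.02 and -0.19. Mrps23 had 0.07. Among the 14 members with a positive value, Mrpl24 had the highest (0.26, SE 0.25), and it is named because of that value. Its arrays read 2.56, 3.29 and 3.10 in knockout and 2.22, 2.92 and 3.03 in wild type liver, with overlap.

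Promoters of the 20 lower genes were examined because these genes read lower together. RefSeq promoter windows (GRCm38.p6, 250 bases before to 50 after the start) were given for 68 of the 77 genes, 20 of them lower and 48 other. The letters searched on both strands were CCGGAAG for ETS factors such as GABP, AAGATGG for the YY1 core, CATGCGC for an NRF1 core added after the other motifs, CCAAT for the CCAAT box and GGGCGG for Sp1. Longer consensus motifs of NRF1 (10 letters) and YY1 (11 letters, the core included) were searched too. NRF1 and GABP are known as regulators of nuclear genes for mitochondria. The windows of 4 lower genes are shown from 150 bases before to 30 after the start. They were the 4 of smallest p with a match to the ETS letters or a longer consensus inside that stretch, and capitals mark these matches. In the full windows, 10 of the 20 lower members and 37 of all 68 members had such a match. The windows shown were thus picked for holding one.
Mrps18a, chr17:46110854-46111033, plus strand: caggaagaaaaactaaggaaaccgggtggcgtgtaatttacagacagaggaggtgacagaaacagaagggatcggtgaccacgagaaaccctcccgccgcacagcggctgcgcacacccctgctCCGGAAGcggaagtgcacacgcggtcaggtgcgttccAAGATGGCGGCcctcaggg
Mrps22, chr9:98601650-98601829, minus strand: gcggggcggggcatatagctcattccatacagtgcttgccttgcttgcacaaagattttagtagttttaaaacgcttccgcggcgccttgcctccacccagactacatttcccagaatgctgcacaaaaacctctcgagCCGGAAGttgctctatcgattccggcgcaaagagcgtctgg
Mrpl52, chr14:54426759-54426938, plus strand: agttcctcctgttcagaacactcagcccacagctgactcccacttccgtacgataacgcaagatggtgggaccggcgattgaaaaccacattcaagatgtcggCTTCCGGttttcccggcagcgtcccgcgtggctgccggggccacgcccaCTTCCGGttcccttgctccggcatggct
Mrpl30, chr1:37890327-37890506, plus strand: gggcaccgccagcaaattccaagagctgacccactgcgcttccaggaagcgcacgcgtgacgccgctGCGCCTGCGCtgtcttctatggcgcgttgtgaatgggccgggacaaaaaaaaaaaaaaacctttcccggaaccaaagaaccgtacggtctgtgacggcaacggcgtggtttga
Mrps18a holds an ETS match followed by the longer YY1 motif just past the start, Mrps22 an ETS match, Mrpl52 a pair of ETS matches on the opposite strand and Mrpl30 the longer NRF1 motif.

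The share of members with ETS, NRF1 or YY1 letters was above that of protein-coding genes, and these letters were found in lower and in other members. The ETS letters occurred in 25 of 68 members (36.8%), in 7 of the 20 lower and in 18 of the 48 other members, against 12.9% of 17491 protein-coding genes and 9.93% of all 27025 genes. The longer NRF1 motif occurred in 13 members (19.1%), 2 of them lower, against 7.17% of protein-coding and 5.19% of all genes. The NRF1 core CATGCGC occurred in 8 members (11.8%), 1 of them lower, against 5.39% and 4.41%. The longer YY1 motif occurred in 5 members (7.35%), 2 of them lower, against 1.06% and 0.755%. The YY1 core occurred in 19.1% of members against 7.18% of protein-coding genes. For Sp1 (50% against 49.2%) and the CCAAT box (38.2% against 42.3%) the shares were near those of protein-coding genes. A match describes the sequence only, and some genes have several starts.

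Of the genes that work with the mitochondrial ribosome, a few were lower and none was higher at an unadjusted p under 0.05, where 6.44% of all genes were lower. Among 12 translation factors 3 were lower, with a median log2 fold change of -0.09. They were the initiation factor gene Mtif2 (4.92 ± 0.27 against 5.66 ± 0.24, SD, n = 3 each), the ribosome recycling factor gene Mrrf (-0.49) and the elongation factor gene Gfm1 (-0.69), the last with overlapping groups. Of 24 genes for ribosome assembly and rRNA modification 3 were lower, namely Gtpbp10, Tfb1m and Mterf3. Gtpbp10, a GTPase of large-subunit assembly, read 3.18, 3.17 and 3.37 against 3.78, 4.39 and 4.57 (log2 fold change -1.01, SE 0.20, limma adjusted p = 0.202). Tfb1m, which methylates the small ribosomal RNA, had -0.45 and Mterf3 -0.57, while the median of that list was 0.00 and Fastkd2 had -0.50 with overlap. The median level of that list was 1.44, close to the array medians, against 2.54 for the members. Many of its genes were thus too dim for a difference to be seen. When only genes above the median level were fitted, 12 of the list were left, with a median log2 fold change of -0.06.

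Of 16 mitochondrial aminoacyl-tRNA synthetases 3 were lower, Yars2 (-0.97), Mars2 (-0.44) and Tars2 (-0.28), with a median of -0.12 over the list. The median level of the list was 1.57. Mars2 averaged 1.20 in knockout and 1.65 in wild type liver, and Tars2 1.44 and 1.72. These readings lay near the array medians, which limits what they show. Over all genes 6.44% were lower. Leaving out knockout replicate 1 gave 1 lower gene in this list, against 5.67% of all genes. Leaving out wild type replicate 1 gave 6, against 11.2% of all genes. Of 11 genes for mitochondrial DNA and its transcription 2 were lower, Tfb2m (-0.31), a transcription initiation factor, and Slirp. Slirp, which stabilises mitochondrial messages with Lrpprc, read 5.90, 5.67 and 5.90 against 6.34, 6.36 and 6.75 (log2 fold change -0.66, SE 0.14, limma adjusted p = 0.229). Of the listed ribosomal proteins that carry other names, 4 were measured under those names. Dap3 (-0.22), Ptcd3 (-0.34), Gadd45gip1 (-0.04) and Chchd1 (-0.03) were all negative and 0 were lower at an unadjusted p under 0.05. None of the genes of these lists passed over all genes (limma).

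Transcripts of the cytosolic ribosome, which translates nuclear messages, read higher in knockout liver. The 52 measured genes had a median log2 fold change of 0.22, with 18 higher and 0 lower at an unadjusted p under 0.05, where 2.59% of all genes were higher. None of the 52 passed over all genes (limma). The median lay between 0.15 and 0.31 when any 1 array was left out, with 8 (without knockout replicate 2) to 21 (without wild type replicate 3) genes higher, and was 0.24 after renewed quantile normalization. Rps28 read 7.45, 7.62 and 7.63 in knockout and 6.91, 6.86 and 6.90 in wild type liver. Cytosolic ribosomal protein genes have many processed pseudogenes of near-identical sequence, so their probe sets may read more than the named gene. The knockout livers averaged 7.54 ± 0.09 and the normal livers 7.33 ± 0.14 over these genes (SD, n = 3), and wild type replicate 3 (7.50) lay among the knockout arrays.

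Nuclear genes of the respiratory chain and ATP synthase, isoforms included, lay between. The 81 genes had a median of -0.20, with 16 (19.8%) lower and 0 higher at an unadjusted p under 0.05, where 6.44% of all genes and 26.6% of those at a level of 3 or more were lower. The count lower was 4 without knockout replicate 3, with 2 higher. It was 7 without wild type replicate 2, 8 without wild type replicate 3, 25 without wild type replicate 1 and 6 after renewed quantile normalization. Of the respiratory chain genes, 41 of 81 lay below the median of all genes of like level, beside 53 of 77 members. The median level was 4.17 for the respiratory chain genes and 2.54 for the members. Over these genes the knockout livers averaged 4.36, 4.53 and 4.27 and the normal livers 4.37, 4.56 and 4.79, with overlap. The median moved to -0.06 after renewed quantile normalization, to -0.08 without wild type replicate 3 and to -0.10 without knockout replicate 3. The difference between these groups and the members was not tested.

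**Figure D4:**
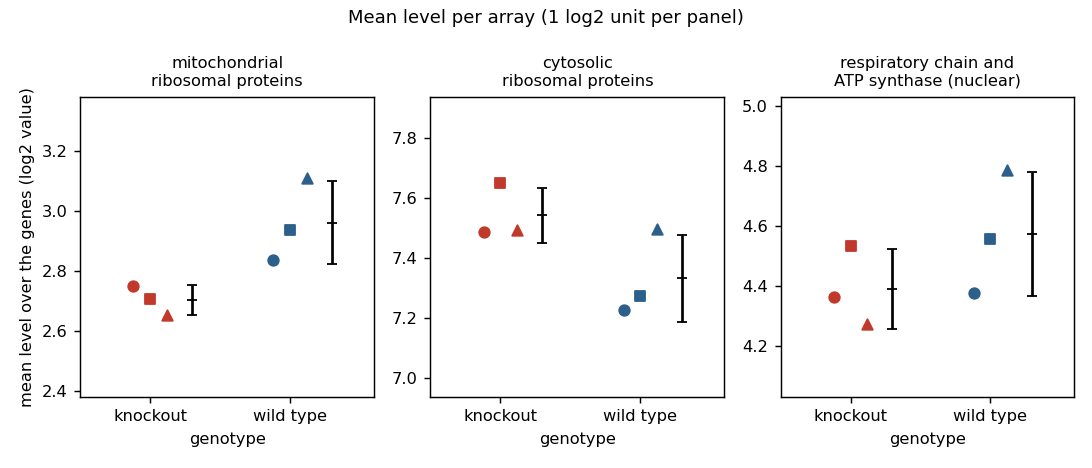
Mean level (deposited log2 values) per array over 77 mitochondrial ribosomal protein genes, 52 cytosolic ribosomal protein genes and 81 nuclear respiratory chain genes, with mean ± SD (n = 3) beside the points and an axis of 1 log2 unit in each panel. Knockout arrays lie below wild type arrays in the first panel, while the groups overlap in the others.

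Erythroblast markers also read lower in knockout arrays, while the sums of most other marker lists overlapped. Of 8 erythroblast markers 7 were measured, and 5 were lower at an unadjusted p under 0.05, as were 6.44% of all genes and 26.6% of those at a level of 3 or more. Their summed log2 level was 32.9 to 35.7 in knockout and 36.7 to 39.1 in wild type arrays. For 8 hepatoblast markers, 4 of them lower, the sums were 42.8 to 50.7 and 49.9 to 53.5, with overlap. Afp (0.04) and Krt18 (0.17) had positive log2 fold changes. Without wild type replicate 2 or 3 only 1 hepatoblast marker was lower, and without knockout replicate 3 there were 2, with the median of the list at -0.31 in place of -0.62. For 5 measured proliferation genes, 3 of them lower, they were 32.2 to 32.9 and 34.3 to 35.2. The sums of 8 macrophage markers were 12.1 to 14.8 against 14.4 to 17.1 with 1 lower, and C1qa, C1qb and Cd163 lay below the array medians.

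The sums of 8 endothelial markers were 13.6 to 15.1 against 13.5 to 14.0, of 3 measured megakaryocyte markers 9.25 to 10.9 against 10.02 to 10.4, and of 6 neutrophil markers 12.5 to 15.0 against 13.0 to 15.1. In these 3 lists 0 genes were lower or higher at an unadjusted p under 0.05 (limma). Kdr, Pecam1, Tek, Flt1, Elane and Ltf lay below the array medians. The measured erythroblast and hepatoblast markers each lay above the array medians on average over the 6 arrays. Hnf4a, however, read 1.27 in knockout replicate 1, below the median of that array (1.43). Presence in each genotype was not tested. The part of these markers in the values of the mitochondrial ribosomal protein genes was not tested either.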

How the data were processed

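The deposited table holds log2 values made by the authors with RMA, per the submitters' processing notes (no version given). Base 2 was read from the range of the values, since no source used here names the base. RMA commonly ends with quantile normalization, yet the upper parts of these arrays' distributions differ. Of 28853 probe sets 21789 had 1 gene symbol in a platform annotation, 1621 had several and 5443 were not named there. All 77 member symbols were current in a gene table of GRCm38.p6.

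Knockout and wild type arrays were compared over all 19938 genes with limma 3.58.1 in R 4.3.3 (lmFit, eBayes, two-sided, no covariates, no filter), Benjamini-Hochberg adjusted p-values over the whole table and a limit of 0.05. The fit was also run on simulated data with independent noise and no array-wide shifts. Recovery of single genes was checked there only for differences larger than those of the members. That run does not bear on smaller differences of single genes or on array-wide shifts. Lists are described by counts and medians. The members and lists were chosen with earlier results of these data known, and support nothing by themselves. Genes named are members with an unadjusted p under 0.05, the 4 brightest and 4 dimmest, the Mrps18 paralogs, up to 6 members with several probe sets, up to 4 genes of smallest p per list and Tmod3. Also to be named, up to 8 by smallest p, were members with every knockout array above every wild type array, and there was none. The fit was repeated without each array, with replicate number as block, after quantile normalizing again, after centring arrays on their medians, with probe sets averaged per gene, without dim genes, and with an intensity trend and robust fitting.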

Additional observations from a re-analysis of the deposited data

How the results depend on the processing

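In all 12 alternatives the median of the 77 genes was negative and the count of members higher at an unadjusted p under 0.05 was 0, as was the count past adjustment. Leaving out 1 array gave medians from -0.29 to -0.16 and 15 to 30 lower members, where 3.95% to 11.2% of all genes were lower, and from 0 to 95 genes past adjustment over all genes, where the fit of all arrays gave 3. The 95 genes, the 30 members and the 11.2% came without wild type replicate 1. Renewed quantile normalization gave a median of -0.13, 11 lower members, 10 of them among the 20, and 6 genes past adjustment. Of the genes lower or higher at an unadjusted p under 0.05, 71.3% were lower as deposited, 60.4% after that step, 83.4% after centring on the array median, 86.6% with dim genes left out and 59.7% with an intensity trend and robust fitting. The number of members without overlap, counted for the other scalings after the data were seen, was 18 as deposited (7.10% of all genes), 10 after renewed quantile normalization (7.54%) and 19 after centring (9.35%). Relative to the median of all genes in the same range of level, also added later, the median of the members was -0.14. The cause of these changes was not tested. With the replicate number as a block, 23 members and 6.61% of all genes were lower and 0 genes passed adjustment. Deviations of same-numbered arrays had correlations of 0.11, 0.06 and -0.10, and those of the other pairs ran from -0.19 to 0.19. With 3 arrays per genotype these values cannot settle whether the numbers pair the samples. The medians of the cytosolic and respiratory chain genes kept their sign in every alternative. Readings near the array medians limit what can be seen of the dimmest members.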
